A study of Rattus norvegicus with 12 samples.

Results

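Voltage-gated potassium channel alpha subunits, the proteins that form the pore and the voltage sensor of Kv channels, were followed in RNA from the rat prefrontal cortex. The genes were taken by symbol: rows of the deposited table whose name is Kcna, Kcnb, Kcnc, Kcnd, Kcnf, Kcng, Kcnh, Kcnq, Kcns or Kcnv followed by a number, which leaves out the Kcnab beta subunits. This gave 37 genes of 22431, of which 31 had a mean of at least 0.5 FPKM (fragments scaled to transcript length and library size) over the libraries and were tested among 14170 genes. The 12 libraries came from wild-type offspring in early adolescence, 1 animal each, in groups of 4. Saline animals were the controls, PNO animals had postnatal oxycodone exposure and IUO animals had in utero oxycodone exposure. Oxycodone is an opioid receptor agonist. It was given by oral gavage at 15 mg/kg, in a protocol that could run up to postnatal day 21, and the labels do not state which dosing window belongs to which group. Each group drew on 2 dams with 2 offspring each, but no animal is tied to its dam, so the p-values, which take animals as independent, may be too small. The sources used here give neither strain nor sex.

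Kv channels are tetramers that open when the membrane depolarizes and let potassium leave the cell, which repolarizes the neuron and sets how soon it can fire again. Kcna genes (the Kv1 or Shaker family) encode low-threshold axonal channels, Kcnb genes (Kv2) somatic delayed rectifiers, Kcnc genes (Kv3) the fast channels of rapidly firing interneurons, and Kcnd genes (Kv4) the dendritic A-type channels. Kcnf, Kcng, Kcns and Kcnv genes encode electrically silent subunits that form no working channel alone and modify Kv2 channels. Kcnq genes (Kv7) carry the M-current, and Kcnh genes encode the ether-a-go-go (EAG), Erg and Elk channels.

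Promoter sequence was matched by symbol for 24 of the 37 genes, from RefSeq on GRCr8. The 4 shown are those of Kcnf1 and Kcnh6, which had the smallest p-values between PNO and saline, of Kcna2, which had the smallest between IUO and saline, and of Kcna5, which moved most clearly with striatal markers. Each is the 250 bases before the annotated start, 5′ to 3′ on the gene's strand. Capitals mark a GC box (GGGCGG) or a CCAAT box (CCAAT) on either strand.
Kcnf1 (chr6:45693707-45693956, minus strand): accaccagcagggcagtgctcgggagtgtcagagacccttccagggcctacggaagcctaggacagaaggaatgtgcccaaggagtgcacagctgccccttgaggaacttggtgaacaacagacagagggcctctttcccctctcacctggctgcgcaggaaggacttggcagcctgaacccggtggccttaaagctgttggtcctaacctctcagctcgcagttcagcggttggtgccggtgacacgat
Kcnh6 (chr10:91449401-91449650, plus strand): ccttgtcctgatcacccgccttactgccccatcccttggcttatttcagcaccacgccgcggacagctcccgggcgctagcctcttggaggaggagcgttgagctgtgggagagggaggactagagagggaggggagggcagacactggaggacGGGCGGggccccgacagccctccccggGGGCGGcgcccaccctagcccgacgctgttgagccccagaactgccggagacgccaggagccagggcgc
Kcna2 (chr2:197393280-197393529, plus strand): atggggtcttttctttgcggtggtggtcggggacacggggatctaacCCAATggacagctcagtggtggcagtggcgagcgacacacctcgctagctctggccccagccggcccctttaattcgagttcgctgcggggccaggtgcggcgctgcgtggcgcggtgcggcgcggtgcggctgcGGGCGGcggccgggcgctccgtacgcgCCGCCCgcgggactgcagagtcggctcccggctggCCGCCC
Kcna5 (chr4:161043810-161044059, minus strand): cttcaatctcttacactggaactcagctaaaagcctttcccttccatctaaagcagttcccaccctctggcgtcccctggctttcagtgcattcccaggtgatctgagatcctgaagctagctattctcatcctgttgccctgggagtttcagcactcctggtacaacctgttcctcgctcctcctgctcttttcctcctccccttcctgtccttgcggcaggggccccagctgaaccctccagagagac
The 24 genes have 26 promoters, and a gene counts as holding a motif if any of its promoters does. The GC box was found in 15 of the 24 genes and in 30.5% of all 33469 promoters in the table. CCAAT was found in 4 of the 24 and in 34.0% of all. Neither TATAAA nor the cyclic AMP response element TGACGTCA was found in any of the 24, against 12.9% and 1.59% of all promoters. Median GC content was 66.6% in the Kv promoters and 51.2% in all, and the median number of CpG pairs was 18 against 5. The promoters of Kcnf1 and Kcna5 hold none of the 4 motifs, whereas Kcnh6 has 2 GC boxes and Kcna2 has 3 GC boxes and a CCAAT box. These are descriptions of letters in a fixed window.

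Library totals lay between 49227533 counts (IUO 2) and 60672246 (saline 1). The tissue label was checked on markers of excitatory cortical neurons, which summed to 1728 to 2915 CPM (counts scaled to library size) for all 10 listed. Slc17a7 made up most of that sum, at 1340 to 2435 CPM, and Rorb, at 2.19 to 4.70 CPM, was the lowest. The libraries were not alike in markers of neighbouring regions. The 14 striatal medium spiny neuron markers, all in the table, summed to 371 to 749 CPM in saline, 362 to 2132 in PNO and 382 to 1661 in IUO, and their score (mean log2 CPM of the 13 that passed the filter) was raised in saline 2, PNO 2, IUO 1 and IUO 2. The 10 olfactory bulb markers, all in the table, summed to 126 to 168 CPM in saline, 221 to 449 in PNO and 100 to 519 in IUO, and their score was raised in PNO 1, PNO 3, PNO 4 and IUO 3. Raised means over 0.5 log2 above the median library. The 4 libraries with raised striatal scores were also the highest in the 6 oligodendrocyte and myelin markers. Their mean log2 CPM was 9.95 in saline 2, 10.01 in PNO 2, 9.97 in IUO 1 and 10.35 in IUO 2. The highest elsewhere was 9.53, in saline 1. The striatal marker Ido1 was at 0 in all 4 IUO libraries and at most 0.208 CPM elsewhere, and no olfactory bulb marker was at 0 in any library. The Y-linked gene Eif2s3y was high in 2 saline, 2 PNO and 1 IUO libraries. In bulk tissue, fewer cells of a type and less RNA per cell cannot be told apart.

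The 37 genes spanned a wide range of levels, and a few genes stood far above the rest. In saline animals Kcnh3, an Elk channel of forebrain neurons, was the highest at 57.1 ± 7.56 FPKM (SD, n = 4). Also high were the silent subunit Kcnv1 at 22.5 ± 2.13, the axonal Kv1 gene Kcna6 at 14.7 ± 2.25 and the silent subunit Kcnf1 at 13.7 ± 1.96 FPKM. By family, the sum over the 8 EAG-type genes took 29.7% of all Kv FPKM in saline, the 10 silent subunits 24.9%, the 4 Kv3 genes 18.9% and the 7 Kv1 genes 14.3%. The 3 Kv4 genes took 4.66% and the 4 Kv7 genes 4.40%. The order from gene to gene was mostly within the spread of animals: of 36 neighbouring pairs in the saline ranking, 4 had ranges that did not overlap, among them Kcnv1 above Kcna6, Kcns2 above Kcns3 and Kcnh6 above Kcnh5.

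**Figure D1:**
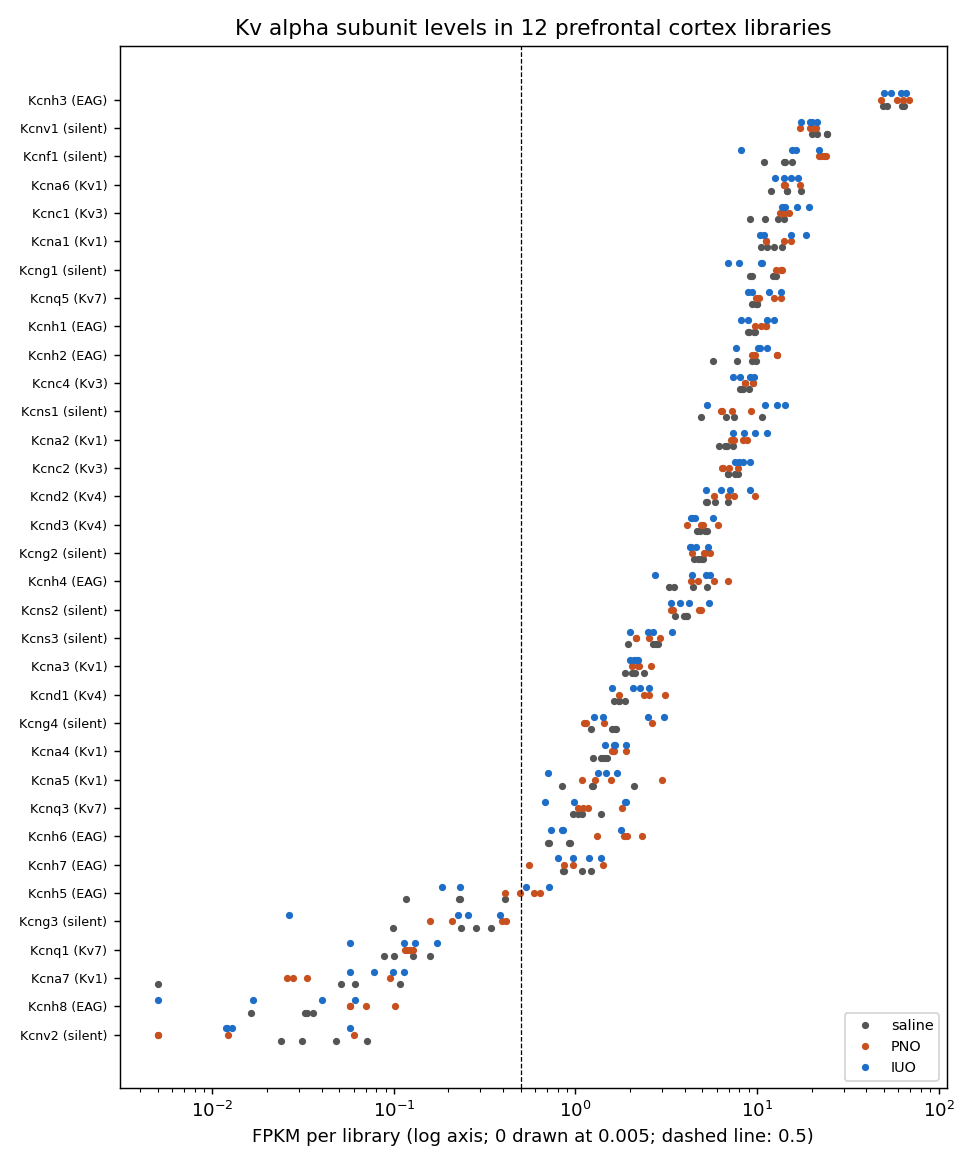
FPKM of 34 of the 37 genes on a log axis, 1 point per library, coloured by group, with the family in parentheses and a dashed line at 0.5 FPKM. Kcnh3 stands highest with a mean of 58.4 FPKM over the 12 libraries, and the 6 lowest genes lie left of the line on average.

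Within families the levels were uneven. Among Kv1 genes in saline, Kcna6 (14.7 ± 2.25 FPKM), Kcna1 (12.02 ± 1.37) and Kcna2 (6.77 ± 0.496), the subunits of axonal low-threshold channels, were above Kcna3 (2.11 ± 0.214), Kcna4 (1.39 ± 0.107) and Kcna5 (1.36 ± 0.537). Among Kv4 genes, Kcnd2 (5.83 ± 0.808) and Kcnd3 (5.002 ± 0.295) were above Kcnd1 (1.75 ± 0.101). Among Kv7 genes, Kcnq5 (9.82 ± 0.294) was above Kcnq3 (1.12 ± 0.186). The 6 genes under 0.5 FPKM were Kcnh5, Kcng3, Kcnq1, Kcna7, Kcnh8 and Kcnv2. Kcna7, Kcnh8 and Kcnv2 had 0 counts in at least 1 library, with highest counts of 27, 25 and 24. Kcnh5, an EAG-type gene, was nearest to the limit, at 0.247 ± 0.121 FPKM in saline, 0.534 ± 0.101 in PNO and 0.415 ± 0.252 in IUO, and none of the 6 was tested. Several genes are neighbours in the deposited coordinates, whose genome build the sources used here do not name. Kcna5, Kcna1 and Kcna6 lie in a row on chromosome 4, with 106 and 69.9 kb between them. Kcna3 and Kcna2 are 54.5 kb apart on chromosome 2. Kcnh3 overlaps a U1 gene on its own strand and Kcnh1 overlaps Hhat on the other, so Kcnh3 could share reads with U1, and Kcnh1 with Hhat if reads were counted without strand.

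The summed Kv level was 245 to 296 FPKM in saline, 298 to 315 in PNO and 260 to 320 in IUO libraries. All 4 PNO libraries were above all 4 saline libraries in this sum, whereas the IUO range overlapped both. The separation at the edge is narrow, with 298.0 FPKM in the lowest PNO library and 296.1 in the highest saline library. Of the 31 tested genes, 4 were above their own 12-library mean in saline 1, 7 in saline 2 and 8 in IUO 4, against 24 in IUO 1 and 23 in IUO 2. The other 7 libraries had between 10 and 19. The same counts over all tested genes were not made, so a shift of a whole library is not separated from these.

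**Figure D2:**
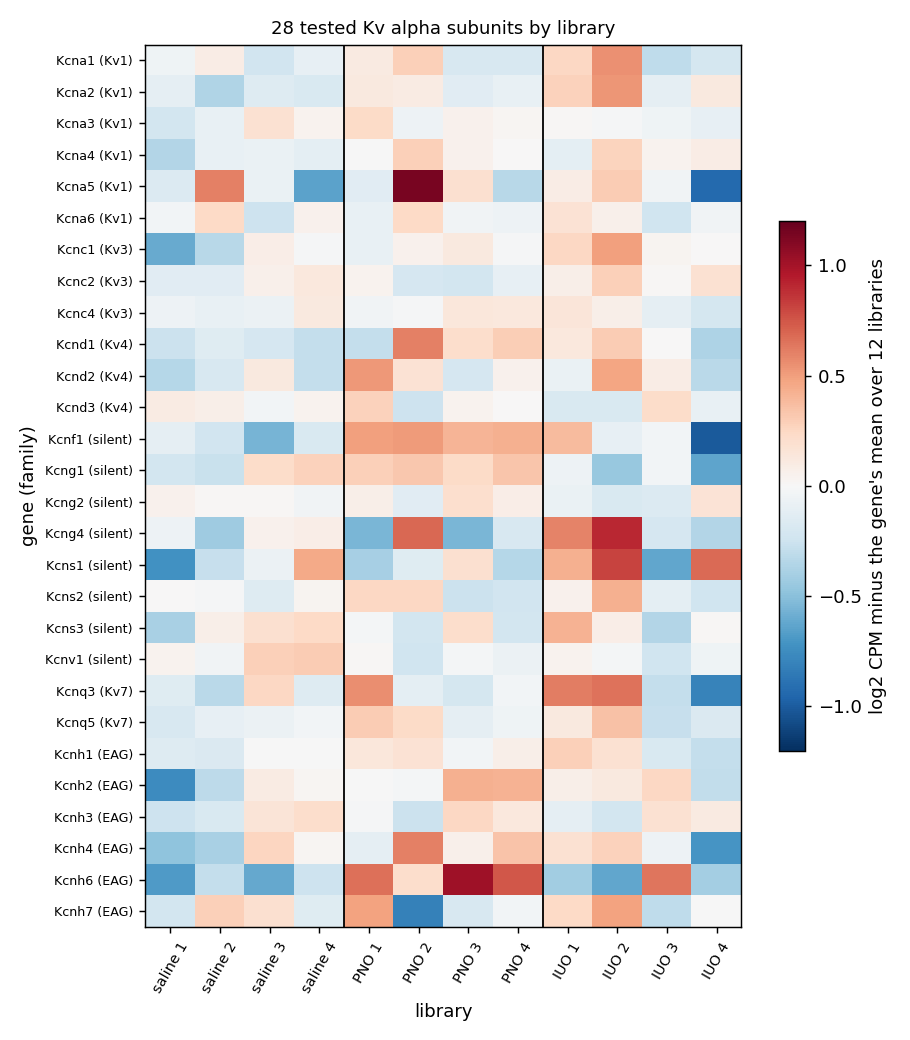
Log2 CPM of 28 of the 31 tested genes minus each gene's mean over the 12 libraries, with genes in rows by family, libraries in columns and vertical lines between groups. Saline 1, saline 2 and IUO 4 are mostly below the mean, with 4, 7 and 8 of all 31 tested genes above it, and IUO 1 and IUO 2 mostly above it, with 24 and 23.

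The first comparison, PNO against saline, asks how postnatal exposure relates to Kv transcripts. Most genes had a higher mean in PNO, led by the silent subunit Kcnf1 and the Erg channel Kcnh6, but no gene passed the test. Of the 31 genes, 25 had a positive log2 fold change (51.2% of all genes did) and 6 a negative one, with a median of 0.17 on the log2 scale beside 0.01 over all 14170 genes. With edgeR's quasi-likelihood test, 0 of 31 had an adjusted p under 0.05, and 0.0% of all genes did. At an unadjusted p under 0.05 there were 5, or 16.1% of the 31 beside 11.0% of all genes; 4 were higher (6.82% of all genes) and 1 lower (4.22%). Groups did not overlap for 3 genes, Kcnh6, Kcnf1 and Kcna4, all higher in PNO (5.17% of all genes were), and for none that were lower (4.66%). DESeq2 called 1 of the 31, Kcnh6, beside 0.826% of all genes, and limma on log2(FPKM + 0.5) called none of the 31 and 1 gene in all.

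Kcnf1 measured 44.7, 40.9, 32.7 and 42.3 CPM in saline 1 to 4, 67.5, 68.3, 63.8 and 64.6 CPM in PNO 1 to 4, and 62.5, 44.95, 47.1 and 23.9 CPM in IUO 1 to 4. The 4 PNO libraries lay close together and above every saline and IUO library. Kcnf1 encodes a silent subunit that partners Kv2 channels. Its mean was 66.04 ± 2.20 CPM (SD, n = 4) in PNO and 40.1 ± 5.22 CPM in saline (edgeR log2 fold change 0.72, SE 0.21, adjusted p = 0.321). In a fit of only these 2 groups it passed the threshold (adjusted p = 0.0433), as it did without IUO 4 (adjusted p = 0.0468). With both marker scores in the model the log2 fold change was 0.08 (SE 0.31, adjusted p = 0.998). It was 0.75 without the 4 raised bulb libraries, which leaves PNO 2 alone in its group, and 0.71 without the 4 raised striatal libraries. PNO 1, PNO 3 and PNO 4 have raised bulb scores and PNO 2 a raised striatal score, and Kcnf1 was highest in PNO 2, at 68.3 CPM.

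Kcnh6 measured 2.63, 3.49, 2.76 and 3.58 CPM in saline 1 to 4, 6.73, 4.94, 8.66 and 7.16 CPM in PNO 1 to 4, and 3.18, 2.75, 6.65 and 3.20 CPM in IUO 1 to 4. Every PNO library was above every saline library, and IUO 3 stood with PNO rather than with the other IUO animals. Kcnh6 encodes an Erg channel, which opens again on repolarization and slows firing. The mean was 6.87 ± 1.53 CPM in PNO and 3.12 ± 0.488 CPM in saline (edgeR log2 fold change 1.14, SE 0.27, adjusted p = 0.305; DESeq2 adjusted p = 0.0176). The 4 libraries with raised olfactory bulb markers, PNO 1, PNO 3, PNO 4 and IUO 3, were the 4 with the highest Kcnh6. Without these 4 libraries the log2 fold change was 0.65 (adjusted p = 0.712), a comparison that rests on PNO 2 alone, which is assumed to vary like the other groups. With both scores as covariates it was 0.51 (adjusted p = 0.998).

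**Figure D3:**
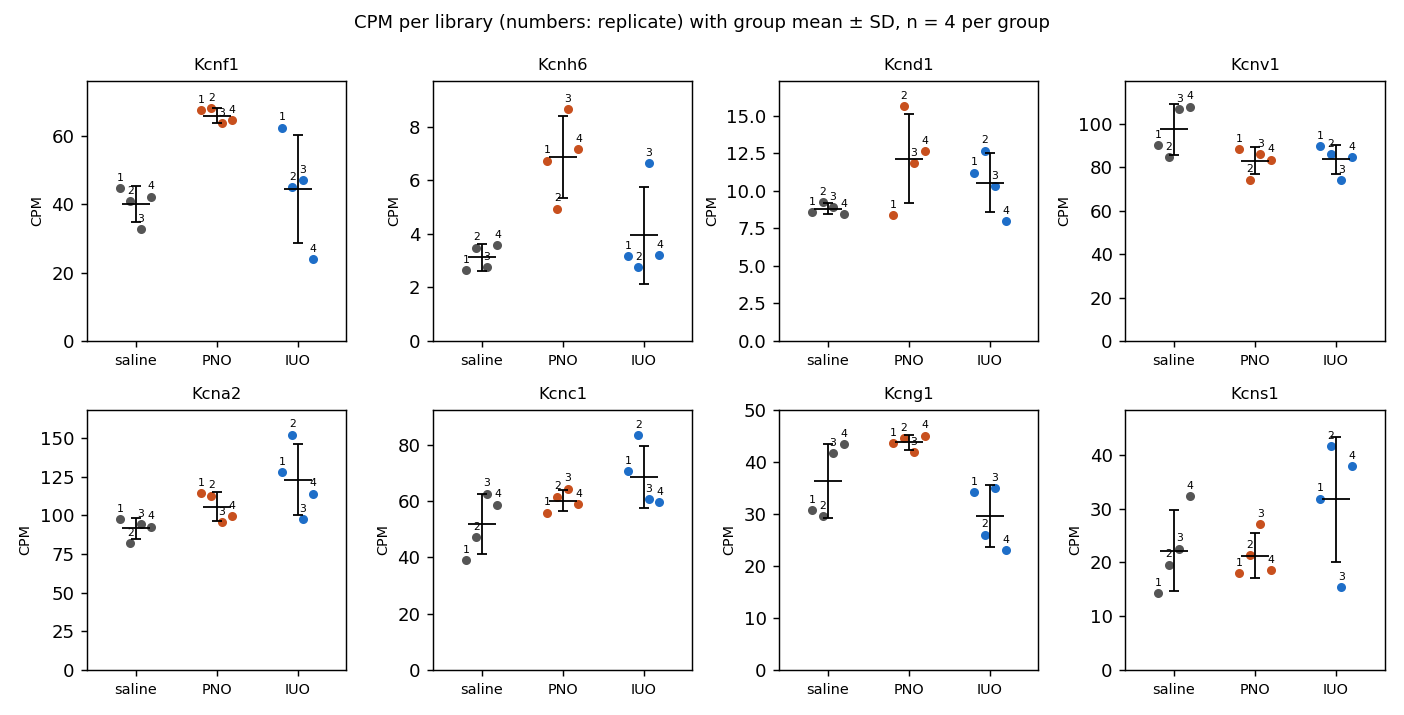
CPM per library for 8 genes, with replicate numbers at the points and black bars for the group mean ± SD (n = 4 per group), each axis starting at 0. The 4 PNO libraries of Kcnf1 lie between 63.8 and 68.3 CPM, above all saline libraries, which lie between 32.7 and 44.7.

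The other genes with small p-values had overlapping groups or smaller differences. Kcnd1 measured 8.61, 9.27, 8.94 and 8.45 CPM in saline 1 to 4, 8.41, 15.7, 11.9 and 12.7 CPM in PNO 1 to 4, and 11.2, 12.7, 10.3 and 7.97 CPM in IUO 1 to 4. PNO 1 was the lowest of the 8 PNO and saline libraries and the other 3 PNO libraries were above all saline ones. Kcnd1 is the least abundant Kv4 gene here and is X-linked (edgeR log2 fold change 0.46, SE 0.18, adjusted p = 0.412). Kcnh2 measured 28.96, 39.5, 52.3 and 49.9 CPM in saline 1 to 4, 48.8, 48.3, 65.7 and 65.4 CPM in PNO 1 to 4, and 51.4, 53.2, 58.01 and 39.8 CPM in IUO 1 to 4. Kcnh2 encodes the Erg channel of the heart, also present in neurons, and its low saline mean came from saline 1 and saline 2 (edgeR log2 fold change 0.42, SE 0.18, adjusted p = 0.437). Kcnv1 measured 90.4, 84.9, 107 and 108 CPM in saline 1 to 4, 88.3, 74.4, 86.2 and 83.7 CPM in PNO 1 to 4, and 89.9, 86.02, 74.04 and 84.8 CPM in IUO 1 to 4. Kcnv1 was the 1 gene lower in PNO at an unadjusted p under 0.05, with saline 3 and saline 4 the highest and saline 2 among the PNO values (edgeR log2 fold change -0.23, SE 0.10, adjusted p = 0.431). Kcna4 measured 12.9, 15.5, 15.5 and 15.1 CPM in saline 1 to 4, 16.4, 20.03, 17.04 and 16.5 CPM in PNO 1 to 4, and 15.1, 19.7, 16.9 and 17.5 CPM in IUO 1 to 4. Kcna4, the inactivating A-type member of Kv1, was above all saline libraries in all 4 PNO libraries (edgeR log2 fold change 0.25, SE 0.11, adjusted p = 0.457).

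The median of the Kv genes was positive in all settings run, from 0.04 to 0.24, and its size moved with the processing. It covers 31 genes, or 37 with no filter and 24 at a mean of at least 2 FPKM. With both marker scores as covariates 18 of 31 were positive, with a median of 0.04. In that fit 0 had an unadjusted p under 0.05, beside 610 of all 14170 genes. Every PNO library has a raised striatal or bulb score, and saline 2 is the only such saline library. Group and scores are therefore hard to tell apart in that fit, where the SE of Kcnf1 went from 0.21 to 0.31. Kv transcripts are long, with a median length implied by the deposited counts and FPKM of 4815 bases against 3111 for all tested genes, and log2 fold changes were larger for longer genes across the 14170 genes (Spearman rho 0.33, genes not being independent replicates). After this length trend was removed, limma on log2 CPM gave 18 of 31 positive with a median of 0.10. At an unadjusted limma p under 0.05 there were 3, beside 1345 of all genes. The test changed with this setting. Limma on log2(FPKM + 0.5), without the removal, gave 26 positive and 4 at such a p. Without saline 1 the median was 0.10, without saline 3 it was 0.21 and without the raised bulb libraries 0.24. Without PNO 2 or PNO 4 there were 3 genes at an unadjusted p under 0.05, beside 1075 and 1234 of all genes. GABAergic neuron markers (7 of 8 in the table) summed to 510 to 650 CPM in saline and 660 to 699 in PNO. Gad1, Gad2, Slc32a1 and Lhx6 had higher means in PNO, with Gad1 at 164 to 201 CPM in saline and 230.1 to 307 in PNO, whereas Sst, Npy and Vip had lower ones, with Sst at 184 to 245 and 154 to 195. Microglial markers (6 of 6) summed to 222 to 284 CPM in saline and 210 to 228 in PNO. Their part in the result was not tested.

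**Figure D4:**
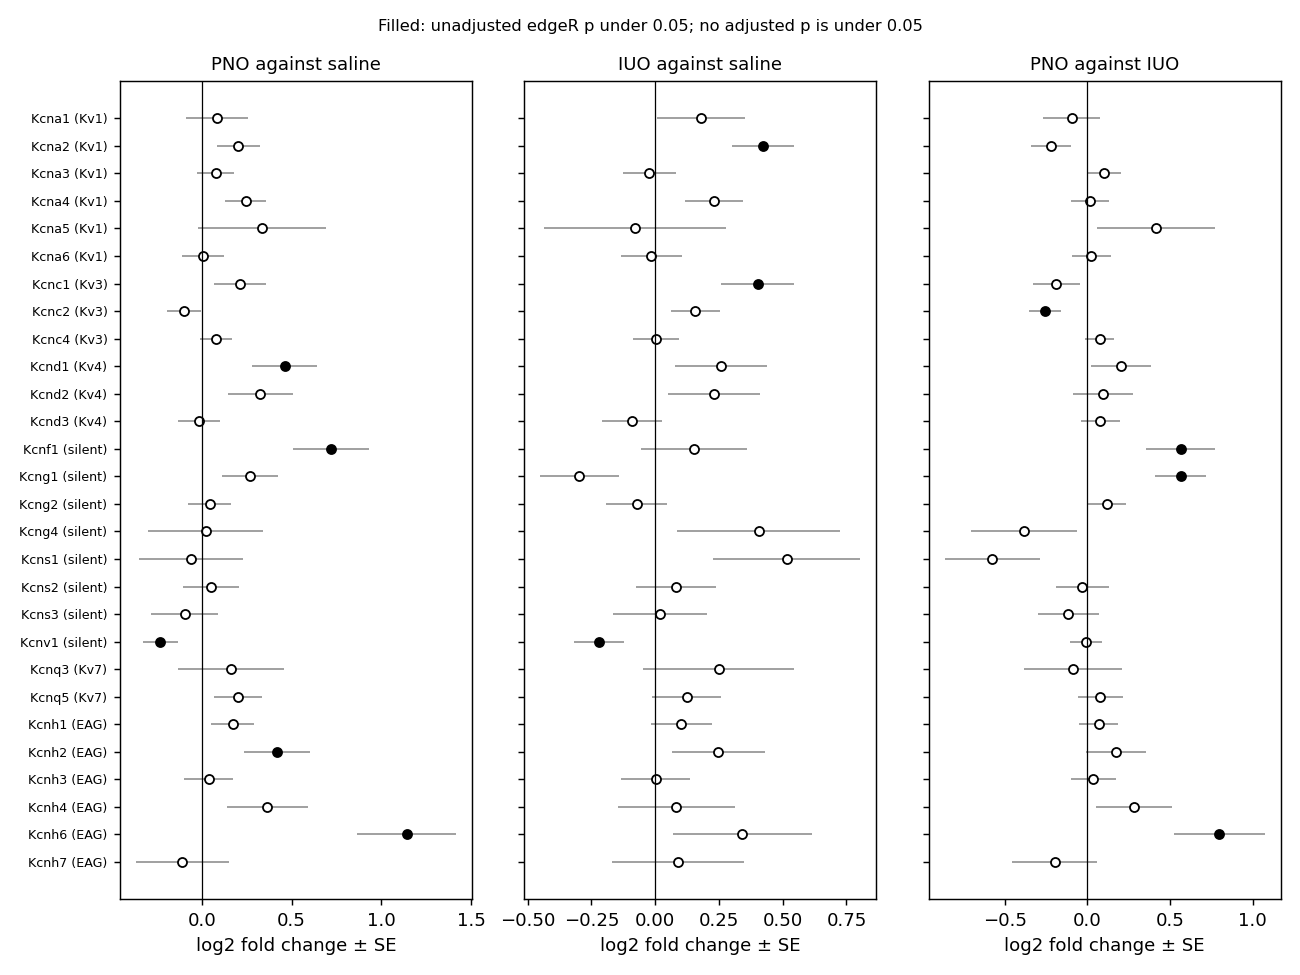
Log2 fold change ± SE of 28 of the 31 tested genes in the 3 group comparisons, ordered by family, with filled points for an unadjusted edgeR p under 0.05. Of these genes, 5 are filled for PNO against saline, 3 for IUO against saline and 4 for PNO against IUO, and none had an adjusted p under 0.05.

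By family, the PNO mean was the higher one for 6 of 6 Kv1 genes tested (median log2 fold change 0.14, with Kcna6 at 0.01), 5 of 6 EAG-type genes (0.27), 3 of 4 Kv3 genes (0.15), 2 of 3 Kv4 genes (0.33) and 3 of 3 Kv7 genes (0.20). The 8 silent subunits tested were split, with 5 higher and 3 lower and a median of 0.03, and held both Kcnf1 and Kcnv1, which lay in opposite directions. Of the 5 genes at an unadjusted p under 0.05, 2 were EAG-type genes, 2 silent subunits and 1 a Kv4 gene.

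IUO against saline asks the same of in utero exposure, with the same saline animals. The smallest p-values belonged to the axonal Kv1 gene Kcna2 and the Kv3 gene Kcnc1, both with higher means in IUO, and no gene passed the test. Of the 31 genes, 24 had a positive log2 fold change (56.4% of all genes did), with a median of 0.12 beside 0.02 over all genes. With edgeR, 0 of 31 had an adjusted p under 0.05 (0.0% of all genes), and 3 had an unadjusted p under 0.05, 9.68% beside 4.02% of all genes. Of these, 2 were higher (2.31% of all genes) and 1 lower (1.71%). Neither DESeq2 (0.0776% of all genes called) nor limma called a Kv gene. Kcna2 was the 1 gene whose groups did not overlap, beside 1.15% of all genes that were higher without overlap, and no Kv gene was lower without overlap (1.03%).

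Kcna2 measured 97.7, 81.9, 94.5 and 92.8 CPM in saline 1 to 4, 115, 113, 95.7 and 99.4 CPM in PNO 1 to 4, and 128, 152, 97.8 and 114 CPM in IUO 1 to 4. Every IUO library was above every saline library, with IUO 1 and IUO 2 the highest. Kcna2 joins Kcna1 in the channels beside the nodes of Ranvier. The mean was 123 ± 23.1 CPM in IUO and 91.7 ± 6.86 CPM in saline (edgeR log2 fold change 0.42, SE 0.12, adjusted p = 0.998). IUO 1 and IUO 2 also had raised striatal markers and the highest myelin marker scores of IUO. The IUO 3 value was within 0.1 CPM of saline 1, so the separation at that edge is narrow. Leaving out the 4 raised striatal libraries keeps only IUO 3 and IUO 4 of the IUO group. In that fit the log2 fold change was 0.16 (adjusted p = 0.764). With both scores as covariates it was 0.44 (adjusted p = 0.580).

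Kcnc1 measured 39.1, 47.2, 62.7 and 58.8 CPM in saline 1 to 4, 55.9, 61.6, 64.5 and 58.8 CPM in PNO 1 to 4, and 70.7, 83.4, 60.7 and 59.6 CPM in IUO 1 to 4. The IUO libraries overlapped saline 3, and the lowest values were those of saline 1 and saline 2. Kcnc1 encodes the Kv3 channel of fast-spiking interneurons (edgeR log2 fold change 0.40, SE 0.14, adjusted p = 0.998). Without the raised striatal libraries, which keeps only IUO 3 and IUO 4 of IUO, its log2 fold change was 0.17. With both scores as covariates it was 0.33 (adjusted p = 0.667). GABAergic markers summed to 653 to 773 CPM in IUO against 510 to 650 in saline, with Gad1 at 212 to 295 against 164 to 201 and Sst at 178 to 278 against 184 to 245, and their part was not tested. Kcns1 measured 14.3, 19.6, 22.6 and 32.3 CPM in saline 1 to 4, 17.97, 21.4, 27.1 and 18.6 CPM in PNO 1 to 4, and 31.9, 41.7, 15.4 and 38.01 CPM in IUO 1 to 4. Kcns1, a silent subunit, had overlapping groups, with IUO 3 near the lowest saline value (edgeR log2 fold change 0.52, SE 0.29, adjusted p = 0.998). Kcnv1, with its values given above, had a log2 fold change of -0.22 (SE 0.10, edgeR adjusted p = 0.998), and Kcna4 one of 0.23 (SE 0.11, adjusted p = 0.998).

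The direction of the set in IUO depended on which libraries were kept. Its median stayed positive when any 1 library was left out, from 0.04 to 0.19. With the 4 raised striatal libraries left out 11 of 31 genes were positive and the median was -0.12. That fit keeps only IUO 3 and IUO 4 of the IUO group. The median was 0.06 without IUO 1, 0.04 without IUO 2 and 0.19 without IUO 4, and 0.01 with both scores as covariates. Kv genes at an unadjusted p under 0.05 numbered 5 without IUO 1 and 1 without IUO 2, beside 533 and 479 of all 14170 genes.

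PNO against IUO compares the exposure windows directly. The silent subunits Kcng1 and Kcnf1 and the Erg gene Kcnh6 had higher means in PNO, and the Kv3 gene Kcnc2 a lower one. Of the 31 genes, 19 had a positive log2 fold change (49.2% of all genes did), with a median of 0.07. With edgeR, 0 had an adjusted p under 0.05 (0.0% of all genes), and 4 had an unadjusted p under 0.05, 12.9% beside 6.73% of all genes. Of these, 3 were higher (3.06% of all genes) and 1 lower (3.67%). DESeq2 (0.0565% of all genes called) and limma called no Kv gene. Kcng1 and Kcnf1 were higher in PNO without overlap, beside 1.78% of all genes, and no Kv gene was lower without overlap (1.85%).

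Kcng1 measured 30.7, 29.6, 41.7 and 43.4 CPM in saline 1 to 4, 43.6, 44.6, 41.8 and 45.1 CPM in PNO 1 to 4, and 34.3, 26.00, 34.9 and 23.05 CPM in IUO 1 to 4. PNO libraries lay within a narrow band above all IUO libraries, while saline 3 and saline 4 were near the PNO band and saline 1 and saline 2 among IUO. Kcng1 encodes a silent partner of Kv2. The mean was 43.8 ± 1.43 CPM in PNO and 29.6 ± 5.95 CPM in IUO (edgeR log2 fold change 0.57, SE 0.15, adjusted p = 0.714). Against saline, IUO had a Kcng1 log2 fold change of -0.30 (SE 0.15, adjusted p = 0.998). Kcnf1, whose IUO libraries ran from 23.9 in IUO 4 to 62.5 CPM in IUO 1, gave log2 fold change 0.57, SE 0.21, adjusted p = 0.714 with edgeR. Kcnh6, where IUO 3 overlaps PNO, gave log2 fold change 0.80, SE 0.27, adjusted p = 0.714. Kcnc2 measured 34.8, 34.8, 39.7 and 41.7 CPM in saline 1 to 4, 39.3, 33.2, 32.9 and 35.6 CPM in PNO 1 to 4, and 40.1, 46.6, 38.5 and 43.3 CPM in IUO 1 to 4. The IUO libraries were above all PNO libraries except that PNO 1 lay above IUO 3 (edgeR log2 fold change -0.26, SE 0.10, adjusted p = 0.714). Kcnc2 encodes a Kv3 channel of interneurons. Kcns1 gave log2 fold change -0.58, SE 0.29, adjusted p = 0.714, and Kcna2 gave log2 fold change -0.22, SE 0.12, adjusted p = 0.714. The median of the 31 genes was 0.00 without IUO 3 and 0.01 without IUO 4. It was 0.00 with both scores as covariates and, fitted with limma, 0.00 after removal of the length trend. It was 0.23 without the raised striatal libraries, which keeps only IUO 3 and IUO 4 of IUO.

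Because libraries of the same group differed in markers of neighbouring regions, the 31 genes were also read along those markers, in a fit with the group and both scores, so that the coefficient is the log2 change per log2 unit of the score between libraries of 1 group. In PNO the library without a raised bulb score is the 1 with a raised striatal score, so there the scores cannot be told apart. Kcna5, a Kv1 gene, rose with the striatal score. No other Kv gene passed. The 4 libraries with raised striatal scores also had the highest myelin marker scores. The striatal score was therefore not separated from myelin content, whose part was not tested. Along the striatal score 1 of 31 genes had an edgeR adjusted p under 0.05, beside 1.09% of all genes, and 9 had an unadjusted p under 0.05, 29.0% beside 21.7% of all. Of these, 8 were higher (10.2% of all genes) and 1 lower (11.5%), and 21 of 31 coefficients were positive (50.6% of all). Along the olfactory bulb score 0 of 31 passed, beside 0.191% of all genes, with 4 at an unadjusted p under 0.05, 12.9% beside 10.4%. Of these, 3 were higher (4.87% of all genes) and 1 lower (5.49%), and 20 of 31 coefficients were positive (50.5% of all). The score fits with limma called 1 and 0 Kv genes.

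Kcna5 measured 5.37, 9.19, 5.67 and 3.85 CPM in saline 1 to 4, 5.48, 13.2, 6.88 and 4.78 CPM in PNO 1 to 4, and 6.39, 7.43, 5.84 and 3.13 CPM in IUO 1 to 4. PNO 2, where the striatal score peaked, had the highest level, and saline 2 and IUO 2, also raised, were the highest of their groups. The coefficient was 0.66 (SE 0.11, edgeR adjusted p = 0.0189). It passed no longer without PNO 2 (adjusted p = 0.105), without IUO 4 (0.74, adjusted p = 0.462) or with replicate number as a term in the fit. Kcna1 measured 108, 119, 95.4 and 104 CPM in saline 1 to 4, 121, 136, 98.3 and 97.9 CPM in PNO 1 to 4, and 133, 164, 90.5 and 96.7 CPM in IUO 1 to 4. Kcna1, which lies beside Kcna5, had a coefficient of 0.23 (SE 0.07, adjusted p = 0.103), and the raised saline 2, PNO 2, IUO 1 and IUO 2 were the top libraries of their groups. It passed without IUO 3 (0.28, adjusted p = 0.0440). Kcnd1 had a coefficient of 0.27 (SE 0.09, adjusted p = 0.122), and Kcnh3, the most abundant Kv gene, one of -0.15 (SE 0.06, adjusted p = 0.192). Along the bulb score Kcnh6 had 0.38 (SE 0.12, adjusted p = 0.348), Kcna5 0.35 (SE 0.13, adjusted p = 0.407) and Kcns1 -0.43 (SE 0.18, adjusted p = 0.457). The median of the 31 genes turned from 0.08 to -0.09 along the striatal score and from 0.03 to -0.16 along the bulb score when IUO 4 was left out.

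**Figure D5:**
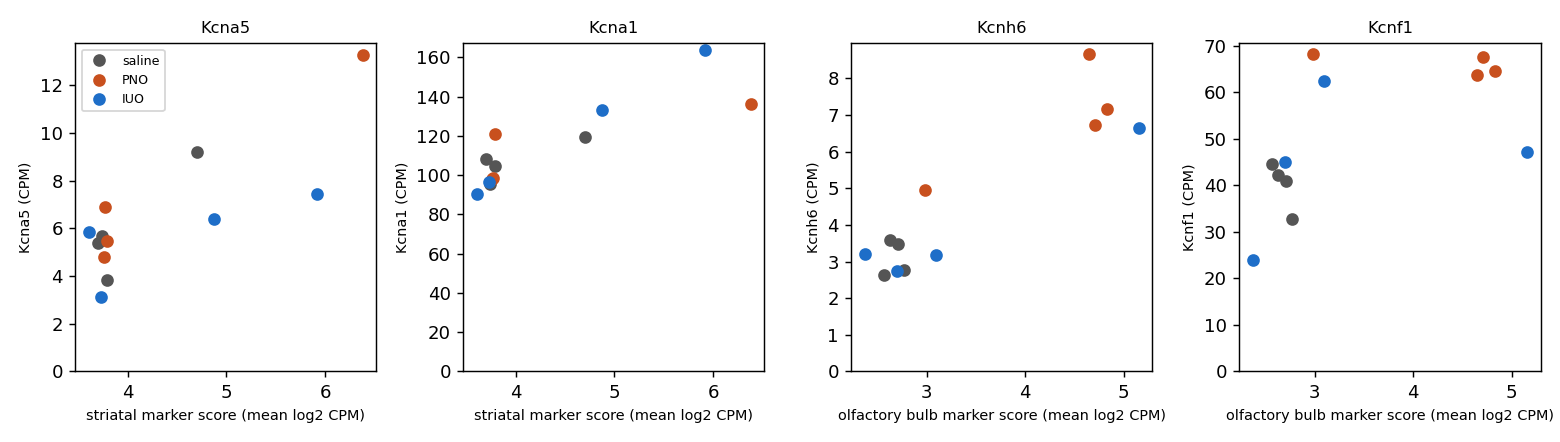
CPM of Kcna5 and Kcna1 against the striatal score, and of Kcnh6 and Kcnf1 against the olfactory bulb score (both mean log2 CPM of the marker list), 1 point per library, coloured by group. Kcna5 is highest at 13.2 CPM in PNO 2, whose striatal score of 6.38 is the highest, and Kcnh6 is highest in the 4 libraries with raised bulb scores.

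The abundant genes that the comparisons did not single out are given for their spread. Kcnh3 measured 197, 206, 259.8 and 269.6 CPM in saline 1 to 4, 231, 195, 277 and 256 CPM in PNO 1 to 4, and 216, 201, 266 and 251 CPM in IUO 1 to 4. Kcnh3 had saline 1, saline 2, PNO 2, IUO 1 and IUO 2 low, and its group means of 233 ± 36.8 CPM, 239.6 ± 35.2 CPM and 234 ± 30.1 CPM were within 1 SD of each other. Kcna6 measured 115, 139, 98.8 and 122 CPM in saline 1 to 4, 110.3, 139, 114 and 113 CPM in PNO 1 to 4, and 133, 122, 99.7 and 114 CPM in IUO 1 to 4. For Kcna6 the groups overlapped throughout, and saline 2 and PNO 2 were the highest.

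Auxiliary and anchoring proteins of Kv channels were read in the same fit, 21 genes that include the Kcnab beta subunits, the Kcnip and Dpp partners of Kv4 and the Cntnap2 and Cntn2 complex that holds Kv1 at axons. No companion passed edgeR in any of the 3 comparisons. In PNO against saline 17 of 21 were positive with a median of 0.20, and 7 had an unadjusted p under 0.05 (6 higher, 1 lower). These are 81.0% positive beside 51.2% of all genes, and 33.3% at an unadjusted p under 0.05 beside 11.0%. Dpp6 measured 109.8, 90.5, 92.3 and 97.3 CPM in saline 1 to 4, 146, 157, 133 and 149 CPM in PNO 1 to 4, and 134, 120.4, 107 and 73.6 CPM in IUO 1 to 4. Dpp6, the Kv4 partner, was above all saline libraries in every PNO library (edgeR log2 fold change 0.59, SE 0.15, adjusted p = 0.305; DESeq2 adjusted p = 0.0297). Kcnab3 measured 11.9, 16.8, 16.1 and 19.9 CPM in saline 1 to 4, 22.8, 19.8, 41.8 and 39.5 CPM in PNO 1 to 4, and 22.5, 29.5, 30.6 and 18.3 CPM in IUO 1 to 4. For Kcnab3, a Kv1 beta subunit, PNO 3 and PNO 4 were far above the rest and PNO 2 just under saline 4 (edgeR log2 fold change 0.94, SE 0.25, adjusted p = 0.305; DESeq2 adjusted p = 0.0295). Cntnap2 gave log2 fold change 0.54, SE 0.17, adjusted p = 0.347.

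In IUO against saline 17 of 21 companions were positive with a median of 0.16 and 4 had an unadjusted p under 0.05, which is 81.0% beside 56.4% of all genes and 19.0% beside 4.02%. The 3 with the smallest were Kcne2, a small Kv accessory subunit (edgeR log2 fold change 0.93, SE 0.28, adjusted p = 0.998), the calcium sensor Kcnip3 (log2 fold change -0.33) and Kcnab3 (log2 fold change 0.64). Kcne2 was highest in IUO 2, at 4.95 CPM, with the other IUO libraries at 2.74 to 3.16. IUO 2 also had the choroid plexus marker Ttr at 199 CPM, against at most 17.5 (saline 1) elsewhere. The part of choroid plexus was not tested. In PNO against IUO the smallest were Dpp6 (log2 fold change 0.43), Vapa, a membrane anchor of Kv2 clusters (-0.17), and Kcnip3 (0.23), each with an edgeR adjusted p of 0.714 or more.

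Other potassium channel pore genes (inward rectifier Kcnj, leak-type Kcnk, and the calcium- or sodium-activated Kcnn, Kcnt and Kcnma1 kinds) gave 37 genes, of which 27 were tested. None passed edgeR in the 3 comparisons. In PNO against saline 18 of 27 were positive (66.7% beside 51.2% of all genes) with a median of 0.11, and 2 had an unadjusted p under 0.05 (7.41% beside 11.0%), Kcnt1 (log2 fold change 0.39) and Kcnj16 (0.73), with edgeR adjusted p of 0.417 and 0.420. In IUO against saline 19 were positive (70.4% beside 56.4%), with a median of 0.10 and 0 at an unadjusted p under 0.05 (4.02% of all genes). Kcnk6 (-0.60), Kcnk12 (0.32) and Kcnt2 (0.58) had the 3 smallest p-values, each with an edgeR adjusted p of 0.998. In PNO against IUO 13 were positive (48.1% beside 49.2%) and 2 had an unadjusted p under 0.05 (7.41% beside 6.73%), Kcnn1 (0.37) and Kcnj2 (-0.51). Kcnj16 (0.54) had the next smallest p. The PNO and IUO comparisons share the saline libraries, so their values are not independent.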

How the data were processed

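Poly(A) RNA was sequenced with a stranded kit, per the labels' protocols. The authors aligned reads with HISAT2 and quantified with StringTie, per the submitters' processing notes; versions, build and annotation are not stated in the sources used here. Deposited values are whole-number counts per gene and FPKM, per the file headers. Counts were analysed with edgeR 4.0.16 (quasi-likelihood test, TMM factors, 1 fit of 3 groups to 12 libraries, genes with a mean of at least 0.5 FPKM, Benjamini-Hochberg over 14170 genes, two-sided, threshold 0.05). SE was the log2 fold change divided by the square root of F. CPM used TMM-scaled library sizes, and log2 CPM a prior count of 2. DESeq2 1.42.0 and limma 3.58.1 on log2(FPKM + 0.5) were alternatives, in R 4.3.3; Python 3.11.15 and matplotlib 3.10.9 drew figures. Total counts per library ran from 49227533 to 60672246.

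Values in every library are given for genes past the threshold, the 6 smallest unadjusted p in each group comparison, the 3 smallest along each score and the 8 highest mean FPKM. Companion and other channel genes are named where among the 3 smallest of their list. Of the 37 genes, 3 stay in the counts and fits but are not reported singly here. The genes, lists and alternatives were chosen with earlier results of these data known. Alternatives were other pseudocounts, scalings, filters, fits of 2 groups, a replicate block, covariates, a length correction (limma on log2 CPM) and left-out libraries.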

Additional observations from a re-analysis of the deposited data

Results flagged for a closer look

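In 4 of 93 sets of 4 libraries, 1 library stood far from the other 3 of its group, and chance alone flags about 1 in 20 such sets. Kcna4 in saline 1 was 12.9 CPM, below the other saline libraries at 15.1 to 15.5. Kcnh6 in IUO 3 was 6.65 CPM, above the other IUO libraries at 2.75 to 3.20. Kcna6 in PNO 2 was 139 CPM, above the other PNO libraries at 110.3 to 114. Kcnc4 in saline 4 was 96.5 CPM, above the other saline libraries at 84.0 to 85.3.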

How the results depend on the processing

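For PNO against saline the number of Kv genes called, 0, became 1 with DESeq2 (Kcnh6) and 1 in a fit of only the 2 groups compared (Kcnf1). It was 0 to 1 when each library was left out. Of all 14170 genes, these settings called 117, 11 and 0 to 19. The 5 genes at an unadjusted p under 0.05 became 0 with both marker scores as covariates, with a raised score in every PNO library. They became 3 after removal of the length trend, fitted with limma, and 3 to 6 when each library was left out. Of all 14170 genes, 1564 had such a p in the main fit. The 3 kinds of setting gave 610, 1345 and 1075 to 2267. For IUO against saline the 3 genes became 1 to 5 when each library was left out, and the 570 of all 14170 genes became 479 to 1276. For PNO against IUO the 4 genes became 2 with the scores as covariates, and the 953 of all 14170 genes became 471. Along the striatal score the 1 gene called became 0 at a mean of at least 2 FPKM, where Kcna5 is not tested (148 of 10823 genes called). The number became 2 with the replicate block (Kcng4 and Kcnh4, with Kcna5 at an edgeR adjusted p of 0.319), beside 319 of 14170 genes. When each library was left out it was 0 to 3, beside 14 to 802 of all genes. The 9 genes at an unadjusted p under 0.05 then became 2 to 12, and the 3078 of all genes became 739 to 3758. Along the bulb score the 4 genes became 2 at a mean of at least 2 FPKM, beside 1193 of all 10823 genes tested there. Over 464 alternatives of 18 named log2 fold changes in the group comparisons, none changed direction and 3 passed the threshold. These 18 had the 6 smallest p-values of each comparison in the same data, which favours a steady sign. Some alternatives left out a library of the group not compared, which hardly moves the value. The median of the whole set did change sign in IUO against saline, to -0.12 without the raised striatal libraries. That fit keeps only IUO 3 and IUO 4 of IUO. Replicate numbers were not used as pairs in the main fit. Same-number correlations between groups ran from 0.02 to 0.41, with 4 of 12 over 0.1. Different-number ones ran from -0.30 to 0.20. Of 24 library and comparison pairs, 13 correlated best with their own number, which 1 of the 4 candidate libraries carries. Whether the numbers mark something shared between animals was not tested. The replicate block changed no other count of calls by over 1.5 times. In each case not explained by its construction the cause was not tested.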
